A study of Mus musculus with 2 samples.

Results

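Monocytes with low MHC class II of the mouse colon lamina propria were examined in single-cell RNA sequencing data from mice of the wild type (WT) and from knockouts of the long non-coding RNA that the labels call LncRNA17Rik and the study calls lncLy6c (KO). They made up 380 of 5111 filtered cells, 121 of 2597 in the WT library and 259 of 2514 in the KO library. The members were chosen by measured UMI counts of these same cells. A cell was a member if it held at least 3 UMIs (unique molecular identifiers, 1 for each captured RNA molecule) summed over Ly6c2, F10, Chil3, F13a1 and Plac8 and at least 3 UMIs of Lyz2. It further had to have 0 UMIs over Cd3e, Cd3d, Cd79a, Siglech and Xcr1, below 1% of its UMIs in S100a8 and S100a9, below 0.2% in C1qa, C1qb and C1qc, and below 5 UMIs in each of the sums Ccl24, Retnla, Lpl and Pf4 and Cd209a, Mgl2 and Clec10a. The last condition set these cells apart from their neighbours in the data, since Cd74, H2-Aa and H2-Ab1 together had to stay below 1% of the UMIs of a cell. Cells that met all other conditions but lay at or above that limit were called monocytes with high MHC class II, 214 in WT and 92 in KO. Levels of all these genes in the members follow from the rule and are given below as descriptions only.

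The KO allele was made with CRISPR-Cas9 on the C57BL/6J background, so that every cell of the animal lacks it and not the monocytes alone. Both libraries came from gut lamina propria cells labelled cd11b+. The cells had passed a Percoll gradient and a sort in which 7-AAD marked dead cells. The study describes the sample as pooled from young adult male mice, so that spread between animals cannot be seen, and the labels name no treatment. With 1 library per genotype there was no replicate, so that no test was run and genotype cannot be told apart from any other difference between the libraries. Intervals in parentheses are exact 95% intervals that cover counting error only.

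Classical monocytes are made in the bone marrow, leave it through the chemokine receptor CCR2, carry high Ly6C and circulate for a short time. In the intestine they keep arriving throughout life and pass through a series of stages in which Ly6C is lost, MHC class II is gained and the cells turn into resident macrophages. Cells with monocyte genes and little MHC class II stand at the start of that series. A separate path leads from classical to non-classical monocytes, which lose Ly6C and CCR2, patrol the vessel wall and depend on the nuclear receptor NR4A1.

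The members were deep enough to be compared, but not equally deep. The median WT member held 5090 UMIs and the median KO member 9349, with sums of 673454 and 2261750. Levels are therefore given as CPM, the UMIs of a gene per 1000000 UMIs of the members of a library, and shares of cells with a UMI are given after each cell had been thinned to 2000 UMIs, which left 109 WT and 250 KO members. The libraries shared 1 barcode sequence, carried by no member. The knocked-out RNA could not be checked, since the only gene matched by the study's primers, 1700016P04Rik, had 0 UMIs in both libraries, which allows up to 4.45 CPM in WT members and 1.33 CPM in KO members.

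RNA of other cell types differed between the libraries and stands beside the values below. The 12 markers of B and plasma cells summed to 11009 CPM in WT members and 95.5 CPM in KO members, against 11662 and 157 CPM in T cells of the same libraries, which should lack them. A single WT member held 33.3% of its UMIs in these markers. Epithelial markers summed to 637 CPM in WT members and 20.3 CPM in KO members, against 144 and 30.3 CPM in T cells. They were uneven over the cells, since 21 of 121 WT members held 2 or more such UMIs and 5 of 259 KO members did. Neutrophil markers outside the rule summed to 662 CPM in WT members and 579.6 CPM in KO members, against 11271 and 12219 CPM in neutrophils, and markers of dendritic cells reached 157 and 62.8 CPM. Mast cell and basophil markers were at 0 UMIs in WT members and at 2 in KO members, and T and NK cell markers at 18 and 52 UMIs. Leaving out the 22 WT and 5 KO members with 2 or more epithelial UMIs or over 1% of UMIs from B and plasma cell markers is named where it changed a count. The part of other cell types in the differences was otherwise not tested.

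The rule left a wide range of MHC class II UMIs among the members. The sum of Cd74, the invariant chain, and of H2-Aa and H2-Ab1, the chains of I-A, had a median of 0.192% of the UMIs of a cell in WT members and 0.0711% in KO members. Quartiles were 0.0680% and 0.553% in WT and 0.0366% and 0.144% in KO. WT members thus lay closer to the limit than KO members. The highest members held 0.984% in WT and 0.955% in KO, and the lowest cells outside the limit held 1.02% and 1.01%. In WT, 37 of 121 members lay between 0.5% and 1%, and in KO 15 of 259 did, while 6 members of each library held no such UMI.

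**Figure D1:**
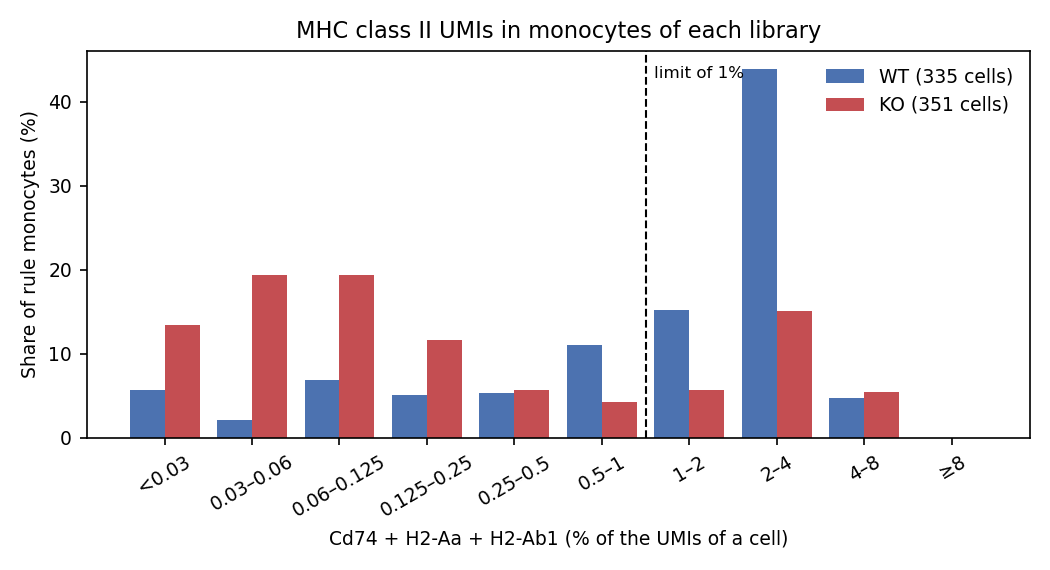
Share of the 335 WT and 351 KO monocytes of the rule (y axis, %) in bins of the summed Cd74, H2-Aa and H2-Ab1 share of the UMIs of a cell (x axis, %). The dashed line marks the limit of 1%, and 43.9% of the WT cells lie at 2 to 4%, where 15.1% of the KO cells lie.

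Monocytes with low MHC class II were a larger part of the KO library. They made up 4.66% (3.88 to 5.54) of filtered cells in WT and 10.3% (9.14 to 11.6) in KO. High MHC class II monocytes went the other way, with 8.24% (7.21 to 9.36) in WT and 3.66% (2.96 to 4.47) in KO, and all monocytes of the rule were at similar numbers, 335 and 351 cells. Among them the low MHC class II cells were 36.1% (31.0 to 41.5) in WT and 73.8% (68.9 to 78.3) in KO. Both intervals of each pair stay apart, but the shares can also be set by the sort, and neutrophils were 1.96% of filtered cells in WT and 9.43% in KO.

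Genes that the rule did not use were looked at in the members. They were ranked by log2 ratio against all other filtered cells of the same library, with 10 CPM added and the smaller library value taken. Hp (haptoglobin), Csf3 (the granulocyte growth factor G-CSF), Sirpb1c, Gpr141, Clec4a3 and Mgst1 stood at the front beside the rule genes. Their log2 ratios with 10 CPM added were 3.31, 2.72, 2.22, 2.18, 2.16 and 2.13 in WT and 2.61, 2.77, 2.66, 2.25, 2.18 and 3.24 in KO. These genes were picked for being high in these same cells, so they are no check of the label. The list of other monocyte genes, which holds Ccr2, Vcan, Fn1 and Cd14, summed to 9344 CPM in WT members and 10780 CPM in KO members, against 468 and 458 CPM in T cells. Rule genes were present at high level as the rule required, with Lyz2 at 6929.9 CPM in WT against 16333 CPM in KO. Ly6c2, which encodes Ly6C (chromosome 15, 75108158 to 75111970, mm10), was at 1875 CPM (1773 to 1982) in WT members and 1241 CPM (1195 to 1287) in KO members. Its near-identical neighbour Ly6c1 had 6 and 2 UMIs, and reads that match both cannot be assigned with certainty. Chemokine receptor Ccr2 was at 1044 CPM (968 to 1124) in WT against 534 CPM (504 to 565) in KO, with a log2 ratio of -0.97 (-1.10 to -0.83).

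Summed over the members, 7455 genes with at least 20 UMIs were compared between the libraries. Of these, 260 (3.49%) were at least 2-fold higher in KO and 636 (8.53%) at least 2-fold lower, on the log2 scale with 1 CPM added, and the median of all genes was -0.15. Among the 10 genes highest in KO against WT were Ccl7, Fabp4, Mdm1, Rbks, Spn, Inhba, Terf2ip, Slpi and AA467197. Several of them rested on few cells. Ccl7, a ligand of CCR2, had 7 and 439 UMIs, and 77.2% of the KO UMIs lay in 5 cells. Terf2ip and AA467197 were of the same kind, with 82.1% and 71.8% of KO UMIs in 5 cells. Mdm1 had 1 and 69 UMIs, Rbks 4 and 92, and Inhba, the activin A subunit, 10 and 190. Slpi, by contrast, was spread over the library, with a UMI in 56.4% of thinned KO members and 23.9% of thinned WT members, against 2.63% and 0.532% of thinned T cells.

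The 10 genes lowest in KO were Car1, Dmbt1, Lypd8, Krt8, 2200002D01Rik, Krt19, Pigr, Adamdec1, Retnlg and Ly6a. The first 7 belong to colon epithelium, and Adamdec1 is also made outside the monocyte lineage. Car1, the carbonic anhydrase of colonocytes, had 169 UMIs in 17 WT members and 2 in 2 KO members, with 91.7% of the WT UMIs in 5 cells. Krt8 and Retnlg were as uneven, with 82.8% and 73.4% of WT UMIs in 5 cells. Ly6a, which encodes the interferon-responsive antigen Sca-1, was spread more evenly. It had a UMI in 23.9% of thinned WT members and 1.60% of thinned KO members, at 193 CPM (161 to 229) and 11.9 CPM (7.87 to 17.4), a log2 ratio of -4.02 (-4.67 to -3.41).

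**Figure D2:**
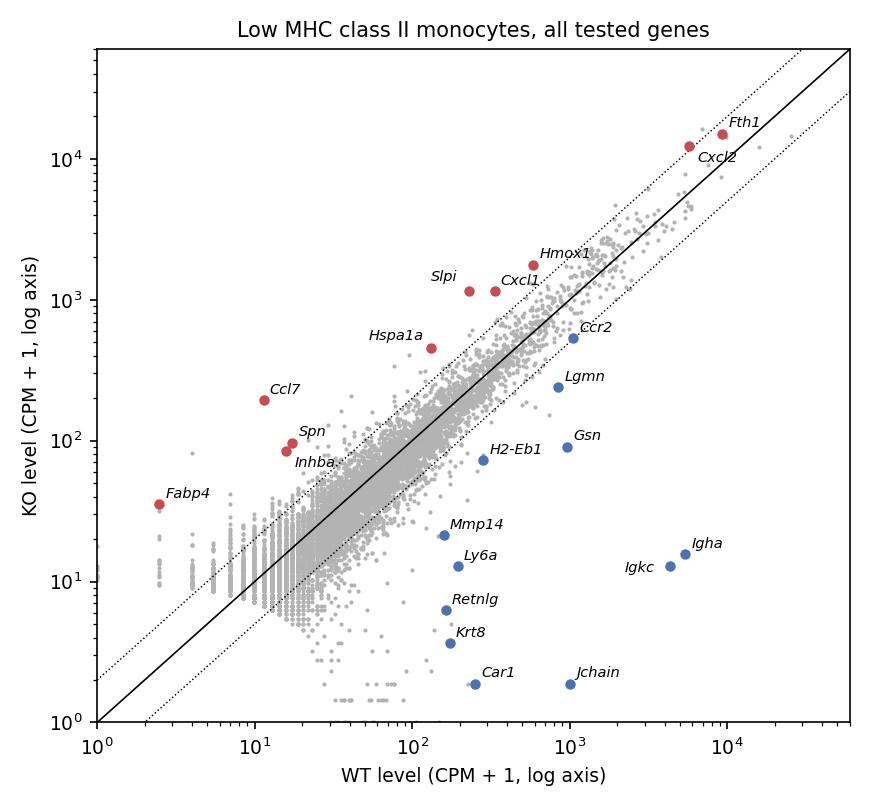
Level of each of the 7455 tested genes in WT members (x axis, CPM + 1, log axis) and KO members (y axis, CPM + 1, log axis). The solid line marks equal levels and the dotted lines a 2-fold difference, and the immunoglobulin genes Igha, Igkc and Jchain and the epithelial genes Car1 and Krt8 lie far below the line, while Ccl7, Slpi, Cxcl1 and Hmox1 lie above it.

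Hmox1 (chromosome 8, 75093621 to 75100589, mm10) encodes heme oxygenase 1, which breaks down heme and frees its iron, and was at 587 CPM (530.1 to 647) in WT against 1775 CPM (1721 to 1831) in KO. Its log2 ratio was 1.60 (1.45 to 1.75), and it had a UMI in 45.0% of thinned WT and 86% of thinned KO members, against 0.532% and 6.58% of thinned T cells. The ferritin chains that store iron were also higher, but by less than 2-fold. No list of iron genes was counted, and Bach1, a heme-binding repressor of Hmox1, was at 631 and 516 CPM. Ftl1 was at 3157 CPM in WT against 6087 CPM in KO, with a log2 ratio of 0.95 (0.88 to 1.01). Fth1 was at 9325 and 15134 CPM, a log2 ratio of 0.70 (0.66 to 0.74). Slc7a11, the cystine carrier that feeds glutathione synthesis, was at 587 and 1299.9 CPM, a log2 ratio of 1.15 (1.00 to 1.30), which was 0.60 in members below 0.1% MHC class II. The difference in Hmox1 was there at each level of MHC class II. In members below 0.1% MHC class II UMIs Hmox1 was at 709 (609 to 821) CPM in WT against 1871 (1803 to 1941) in KO, and in members between 0.3% and 1% it was at 505 (428 to 593) and 1089 (964 to 1225).

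Several chemokines that draw neutrophils and monocytes were higher in KO members. Of 25 tested genes of the cytokine and chemokine list, 8 were at least 2-fold higher in KO and 1 lower, where 3.49% and 8.53% of all tested genes were, and the list had a median log2 ratio of 0.41 against -0.15 for all genes. Higher by that measure were Ccl7, Il1a, Cxcl3, Cxcl1, Il23a, Ccl3, Cxcl2 and Ccl2. Cxcl2, a ligand of the neutrophil receptor CXCR2, was the most abundant, at 5697 CPM (5519 to 5881) in WT against 12387 CPM (12243 to 12533) in KO. Its relative Cxcl1 was at 333 CPM (290.5 to 379) and 1157 CPM (1113 to 1202), and Cxcl3 at 75.7 CPM (56.4 to 99.6) and 340.4 CPM (317 to 365). The evenness of the 3 genes differed. Cxcl2 had a UMI in 82.6% of thinned WT and 91.2% of thinned KO members, whereas 5 cells held 74.1% of the WT UMIs of Cxcl1 and 80.4% of the WT and 70.1% of the KO UMIs of Cxcl3. Among T cells, which should lack these genes, 9.04% of thinned WT and 9.21% of thinned KO cells had a UMI of Cxcl2.

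Ccl2 and Ccl7 are ligands of CCR2, the receptor whose own gene was lower. Ccl2, which fell short of 2-fold under several alternatives with a lowest log2 ratio of 0.64 by mean of per-cell CPM, was at 333 CPM (290.5 to 379) in WT members and 698 CPM (664 to 733) in KO members, and Ccl3, another inflammatory chemokine, at 557 and 1308 CPM. Il1a was at 34.2 and 161 CPM, a log2 ratio of 2.24 (1.63 to 2.91), while its relative Il1b was at 2496 and 2017 CPM, a ratio of -0.31 (-0.39 to -0.23). The interleukin-1 genes thus lay on opposite sides of 0. Tnf was at 462 and 614 CPM, Il6 at 151 and 236 CPM, and the anti-inflammatory Il10 at 325 and 347 CPM, all within 2-fold.

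Cxcl1, Cxcl2 and Cxcl3 lie in a cluster of chemokine genes on chromosome 5, and their promoters share a NF-kB motif. The motif, GGGAA followed at once by TTTCC, was searched on both strands from 250 bases before to 50 after each start site and was found in all 3 promoters and in 0.0883% of 32851 RefSeq promoters. The windows below are shown because these 3 genes were at least 2-fold higher together in KO. Each is 30 bases of GRCm38.p6 from RefSeq, 5′ to 3′ on the gene strand, with the motif in capitals.
Cxcl1, chr5:90891164-90891193, plus strand: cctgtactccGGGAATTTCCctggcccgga
Cxcl2, chr5:90903792-90903821, plus strand: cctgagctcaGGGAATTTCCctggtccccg
Cxcl3, chr5:90786018-90786047, plus strand: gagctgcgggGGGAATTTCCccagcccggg
A match is a description of the sequence and no evidence of binding.

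**Figure D3:**
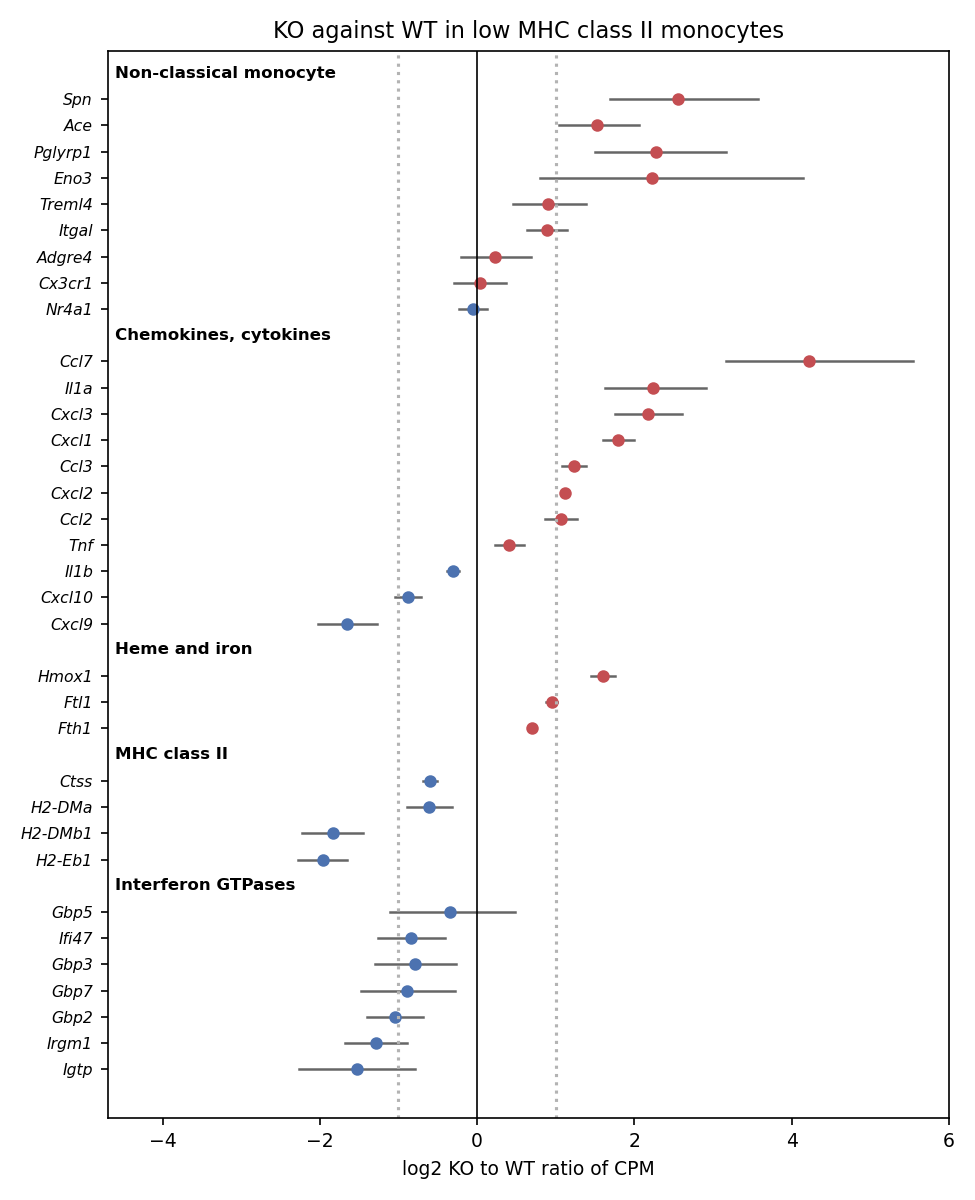
Log2 KO to WT ratio of CPM in low MHC class II monocytes (x axis) for genes of 5 groups (rows). Points are ratios with exact 95% intervals of counting error, dotted lines mark 2-fold, and all 7 interferon GTPase genes and all 4 MHC class II pathway genes shown lie left of 0, while the chemokines from Ccl7 to Ccl2 lie right of 0.

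GTPases induced by interferon gamma had lower levels in KO members, of which 3 passed 2-fold. Of 9 tested GTPases of the Gbp and Irg families, which attack vacuoles that hold intracellular microbes, 3 were at least 2-fold lower in KO and 0 higher, beside 8.53% and 3.49% of all tested genes, and all 9 lay below 0 with a median log2 ratio of -0.83. Gbp2 was at 160.4 CPM (132 to 194) in WT against 77.8 CPM (66.7 to 90.2) in KO, Irgm1 at 139.6 and 57.0 CPM, and Igtp at 46.0 and 15.9 CPM, with log2 ratios of -1.04 (-1.40 to -0.68), -1.29 (-1.69 to -0.89) and -1.53 (-2.27 to -0.79). These genes were unevenly expressed, with 50.9% of the WT UMIs of Gbp2 in 5 cells. Without the 22 WT and 5 KO members with epithelial or plasma cell UMIs named above, 1 of the 9 was at least 2-fold lower, with Gbp2 at -0.72 and Igtp at -0.75. Chemokines induced by the same pathway were lower, 1 of them past 2-fold. Cxcl9, a ligand of the chemokine receptor CXCR3 of T cells, was at 174 and 55.3 CPM, a ratio of -1.65 (-2.03 to -1.28), with 75.2% of the WT and 97.6% of the KO UMIs in 5 cells. Cxcl10, which binds the same receptor, was at 698 and 379 CPM, a ratio of -0.88 (-1.05 to -0.72).

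The list of type I interferon response genes lay closer to the median of all genes. Of 26 tested genes, 2 were at least 2-fold lower in KO, among them Ifi44, and 0 were higher, beside 8.53% and 3.49% of all tested genes, with a median of -0.23 beside -0.15 for all genes. Isg15, a ubiquitin-like protein, was at 245 and 309 CPM with a ratio of 0.34 (0.09 to 0.59), and Oasl2, a relative of the 2'-5' oligoadenylate synthetases, at 120.3 and 63.7 CPM with a ratio of -0.92 (-1.32 to -0.51). Individual genes of the list thus lay on both sides of 0, 9 above and 17 below.

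The promoters of the GTPases carry a common sequence element. The core of the interferon-stimulated response element, GAAA, any 2 letters and GAAA, was searched on both strands in the same window and was found in 9 of the 10 listed GTPase genes with a promoter sequence, against 3.44% of all 32851 promoters. Shown are those of the 3 genes that were at least 2-fold lower, and of Gbp7, with the element in capitals and read on the strand that carries it.
Gbp2, chr3:142620594-142620623, minus strand: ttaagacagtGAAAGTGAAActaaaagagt
Irgm1, chr11:48871431-48871460, minus strand: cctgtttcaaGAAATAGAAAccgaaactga
Igtp, chr11:58199512-58199541, plus strand: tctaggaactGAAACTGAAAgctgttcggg
Gbp7, chr3:142530273-142530302, minus strand: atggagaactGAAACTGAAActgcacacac
Counted in the direction of the gene, the first base of the element lay 59, 30, 34 and 53 bases before the start site. The Irgm1 window holds 2 overlapping matches, of which the first is in capitals.

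Several MHC class II genes that were not part of the rule were lower in KO members, a difference close to the one in the genes of the rule. Of 8 tested genes of the pathway, 3 were at least 2-fold lower in KO and 0 higher, beside 8.53% and 3.49% of all tested genes, with a median of -0.60. H2-Eb1, the beta chain of I-E, was at 281 CPM (242 to 324) in WT against 72.1 CPM (61.4 to 84.0) in KO, H2-DMb1, a chain of the peptide exchange factor H2-M, at 172 and 48.2 CPM, and Ciita, the master activator of the pathway, at 16 and 11 UMIs. Levels within narrow bins of the rule's MHC class II share were therefore compared. In members below 0.1%, H2-Eb1 was at 27.7 (11.2 to 57.2) CPM in WT against 50.1 (39.6 to 62.7) CPM in KO, with overlapping intervals and 7 WT UMIs. In members between 0.1% and 0.3% it was at 217 (143 to 316) and 57.2 (37.7 to 83.3) CPM. Between 0.3% and 1% it was at 522 (443 to 611) and 232 (177 to 299) CPM, so it was lower in KO in both of these bins. Costimulatory genes of the list did not differ by 2-fold, with Cd86 at 138 and 132 CPM and Cd40 at 98.0 and 99.0 CPM. The Y box CTGATTGG, a core element of MHC class II promoters, was found on either strand in 3 of 7 MHC class II promoters searched and in 4.10% of all promoters. That of H2-Eb1 is shown because this gene was not lower in KO in members below 0.1%, with the Y box in capitals.
H2-Eb1, chr17:34305794-34305823, plus strand: ctcctttgatgCTGATTGGctcccagcact

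MHC class I genes had mostly negative ratios too. Of 14 tested genes, 3 were at least 2-fold lower and 0 higher, beside 8.53% and 3.49% of all tested genes, 12 lay below 0 and the median was -0.53. H2-K1, a classical class I heavy chain, was at 2287 CPM (2174 to 2404) in WT against 1229.6 CPM (1184 to 1276) in KO, and the other one, H2-D1, at 1853 and 2141 CPM, a log2 ratio of 0.21 (0.12 to 0.30). The near-identical non-classical genes H2-Q6 and H2-Q7 were at 255 and 59.7 CPM and at 282 and 78.3 CPM, where reads can be split between them. B2m, the common light chain, was at 4475 and 3172 CPM.

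Several non-classical monocyte genes were higher in KO members. Of 12 tested genes of the list, 6 were at least 2-fold higher and 0 lower, beside 3.49% and 8.53% of all tested genes, 11 lay above 0 and the median was 1.23. Spn, which encodes CD43, was at 16.3 CPM (8.15 to 29.2) in WT against 95.9 CPM (83.6 to 109.6) in KO, and Ace, the angiotensin-converting enzyme, at 54.9 CPM (38.7 to 75.7) and 158 CPM (142 to 176). The log2 ratio of Ace was 1.53, and in members below 0.1% MHC class II it was 0.62, short of 2-fold. Pglyrp1, a peptidoglycan binding protein, was at 20.8 and 100.4 CPM, and Eno3 at 4 and 63 UMIs. Cd300e, an activating receptor of these monocytes, had 0 UMIs in WT and 38 in KO, at least 3.77-fold higher when WT is set to 3 UMIs. Fabp4, a fatty acid carrier, had 1 and 78 UMIs, a log2 ratio of 4.54 (2.02 to 9.86). Itgal was at 218 and 404 CPM, Treml4 at 69.8 and 131 CPM and Cd36 at 50.5 and 98.6 CPM, higher in KO by less than 2-fold with log2 ratios of 0.89, 0.91 and 0.97. Treml4 and Itgal passed 2-fold under some alternatives, up to 1.32 and 1.07 in thinned members. The other 3 genes of the list differed less. Nr4a1 was at 503 CPM (451 to 559.9) and 485 CPM (456 to 514), Cx3cr1 at 148 and 152 CPM and Adgre4 at 81.7 and 95.9 CPM, all with intervals of the ratio that include 0.

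UMIs of the non-classical genes were not even over the members. UMIs of Treml4, Ace, Spn, Eno3, Cd300e, Pglyrp1 and Adgre4, 7 genes of the list picked after their values had been seen, were summed in each thinned cell. In WT, 15 of 109 members (13.8%, 7.91 to 21.7) held 2 or more, and in KO 69 of 250 (27.6%, 22.2 to 33.6). T cells, which also express Spn, reached 6.38% in WT and 1.32% in KO. Without Spn the shares were 13.8% and 25.2% of members, with 0 of 188 WT T cells, for which a floor of 3 cells allows up to 1.60%, and 0 of 76 KO T cells, for which it allows up to 3.95%. High MHC class II monocytes reached 5.29% in WT and 13.2% in KO for the 7 genes, also with the higher share in KO. Neutrophils express some of these genes and did reach high shares without Spn, 25.7% in WT and 62.0% in KO. Their Pglyrp1 was at 355 and 820.5 CPM and their Treml4 at 160.1 and 292 CPM, above the members, whereas Ace in KO was at 32.7 CPM in neutrophils and 158 CPM in members, and Cd300e at 2.42 and 16.8 CPM.

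The KO members that held 2 or more such UMIs differed from those that held none in genes outside the sum. Some classical genes were low in them, with Fn1 (fibronectin) at 167 CPM (106 to 250.1) against 1127 CPM (1003 to 1261) and Ccr2 at 159 CPM (99.9 to 241) against 575 CPM (487 to 673). The rule genes Ly6c2 and F13a1 were low too, at 529 against 1347 CPM and at 58.0 against 448 CPM. The rule genes F10 and Chil3 were not set apart, at 623 CPM (498 to 769.6) against 601 CPM (512 to 701) and at 579.7 CPM (459.7 to 721) against 724 CPM (626 to 833). Genes of the vessel-patrolling state were high. Nr4a1 was at 1289.9 CPM (1107 to 1494) against 302 CPM (240.0 to 376), and Itgal, the alpha chain of the integrin LFA-1, at 1123 CPM (953 to 1315) against 224 CPM (171 to 288). Cd36, a scavenger receptor for oxidised lipid, was at 399 against 3.73 CPM and Fabp4 at 203 against 3.73 CPM. Hmox1 and Cxcl2 were high in both classes, with Hmox1 at 2145 and 1507 CPM and Cxcl2 at 10145 and 12172 CPM.

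The 15 WT members of this kind were compared in the same way. Fn1 was at 33.3 CPM (0.844 to 186) against 607 CPM (488 to 745) in the 75 WT members with none, and F13a1 had 0 UMIs in them. Itgal was at 400 CPM (207 to 699) against 207 CPM (140.4 to 293) and Ccr2 at 733 CPM (460 to 1110) against 1180 CPM (1013 to 1367). Cd36 was at 167 CPM (54.1 to 389) against 26.7 CPM (7.27 to 68.3), on 5 against 4 UMIs. These 3 genes had the directions seen in KO, but the intervals of each pair overlap. Cx3cr1 went the other way, at 66.7 against 120 CPM in WT and 261 against 127 CPM in KO. Ly6c2 was not lower, at 2000 CPM (1526 to 2574) against 1700 CPM (1498 to 1922), and Nr4a1 at 767 CPM (486 to 1150.4) against 507 CPM (399 to 634). Chil3, not set apart in KO, was lower in these WT members, at 200 CPM (73.4 to 435) against 973 CPM (822 to 1145). Whether the libraries differ in these genes was not tested, and 15 cells carry the WT values.

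**Figure D4:**
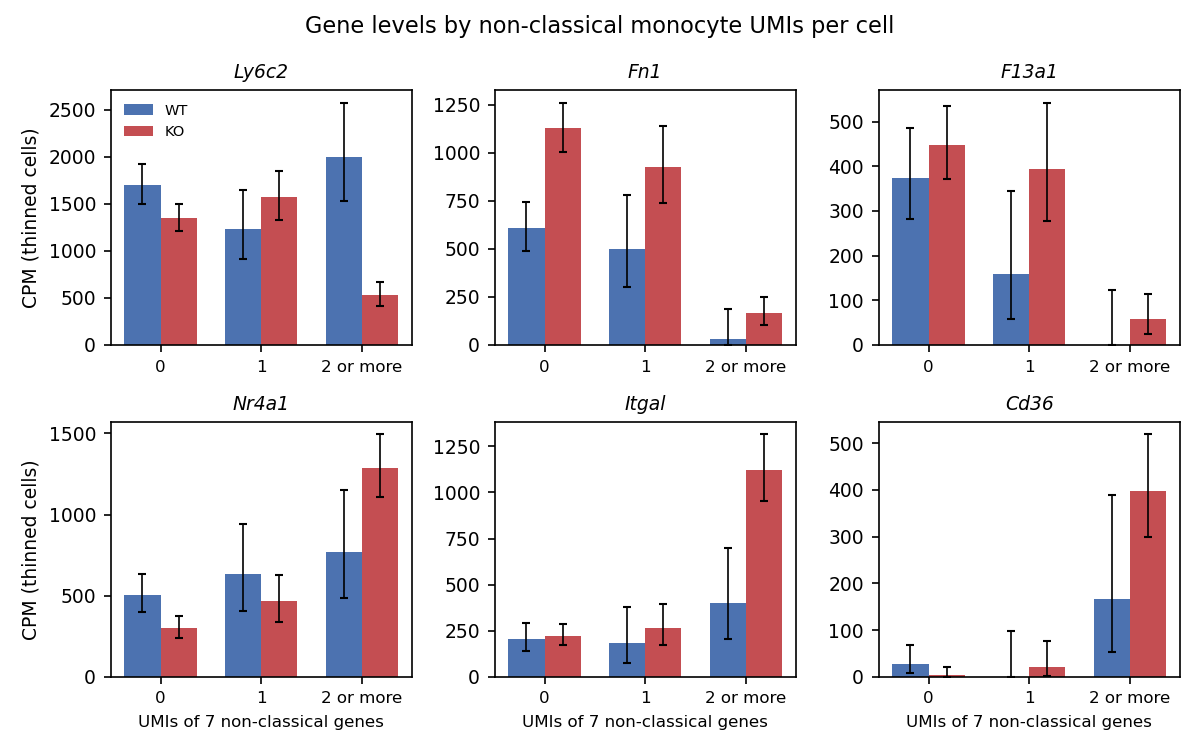
Level (y axis, CPM of cells thinned to 2000 UMIs, with exact 95% Poisson intervals) of 6 genes in WT and KO members that held 0, 1 or 2 or more UMIs of 7 non-classical genes (x axis). In KO members Fn1, F13a1 and Ly6c2 are lowest and Nr4a1, Itgal and Cd36 highest in the cells with 2 or more.

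Some genes of tissue macrophages were lower in KO members. Of 9 tested resident macrophage genes, 3 were at least 2-fold lower and 0 higher, beside 8.53% and 3.49% of all tested genes, with a median of -0.80. The lysosome and matrix lists as wholes were not lower, with 2 of 22 higher, 1 lower and a median of 0.19 for lysosome and phagocytosis and 1 of 19 higher, 2 lower and a median of 0.24 for coagulation and matrix. Axl, a receptor for dying cells, was at 129 CPM (103 to 159) in WT against 30.1 CPM (23.3 to 38.1) in KO, Mrc1, the mannose receptor CD206, at 44 and 34 UMIs, and Cd63 at 98.0 and 26.1 CPM. Adgre1, which encodes F4/80, was at 123 and 113 CPM, with an interval of the ratio from -0.49 to 0.25. Lgmn, a lysosomal asparaginyl protease (chromosome 12, 102394084 to 102439813, mm10), had a UMI in 74.3% of thinned WT and 32% of thinned KO members against 5.32% and 2.63% of thinned T cells. Its level was 845 CPM (777 to 917) in WT against 238 CPM (219 to 259) in KO, with a log2 ratio of -1.83. Mmp14, a membrane-bound matrix metalloprotease, was at 157 CPM (129 to 190.4) and 20.3 CPM (14.9 to 27.1), a ratio of -2.95 (-3.48 to -2.44). Gsn (gelsolin) was lower still at 955 and 89.8 CPM, but 84.1% of its WT UMIs lay in 5 cells.

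Of the IgG receptors, some were lower in KO members. Fcgr2b, the inhibitory IgG receptor, was at 313 CPM (272 to 359) in WT against 134 CPM (119 to 149.9) in KO. Fcgr4 was at 109.9 and 51.7 CPM and Fcgr1, which encodes the macrophage marker CD64, at 139.6 and 78.7 CPM. Fcgr3 was at 254 and 230.4 CPM. Of 6 tested genes, Fcgr2b and Fcgr4 were at least 2-fold lower and 0 higher, beside 8.53% and 3.49% of all tested genes, and Fcgr4 fell short of 2-fold, at -0.88, without the members with epithelial or plasma cell UMIs. The signalling chain Fcer1g was higher in KO at 1302 and 1959 CPM.

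Genes that the study followed in macrophages differed little or moderately in these monocytes. The study reported Runx3 in colon macrophages of this knockout. It reported Nr4a1, Zfp36, Il1b and Ccl5 in those of mice without Runx3 in myeloid cells, so the values here are another comparison. Runx3, a transcription factor (chromosome 4, 135120652 to 135177990, mm10), was at 147 CPM (119 to 179) in WT members and 93.7 CPM (81.5 to 107) in KO members, a log2 ratio of -0.65. Zfp36, a protein that destabilises cytokine mRNA, was at 1861 and 1447 CPM with a ratio of -0.36 (-0.46 to -0.27), and Ccl5 at 40 and 122 UMIs. Neither these 3 genes nor Il1b and Nr4a1 reached 2-fold over all members. Ccl5 rested on few cells, with a log2 ratio of -0.14 over all members, 0.98 without the 5 cells with most of its UMIs and 1.12 in members below 0.1% MHC class II. Of 7 genes that the study placed in the MAPK pathway, 1 was at least 2-fold higher and 0 lower, beside 3.49% and 8.53% of all tested genes. This was Hspa1a, at 131 CPM (105 to 161) and 451 CPM (423 to 479). Daxx had a log2 ratio of -0.88, which was -1.06 with the limit of 2% MHC class II and -1.10 with the rule applied after thinning. Hspa1a is a heat shock protein that also responds to tissue dissociation. Its copy Hspa1b had 64 and 908 UMIs, while other genes of the dissociation list were lower in KO, with Junb at 3799.8 and 2005 CPM and Dusp1 at 2407 and 1201 CPM. Over the 17 tested genes of that list 2 were at least 2-fold higher and 1 lower, beside 3.49% and 8.53% of all tested genes, with a median of -0.07. The lower gene, Dusp1, was just past the limit and fell short of it under several alternatives, at a log2 ratio of -0.85 after subtracting the median of all genes. The part of dissociation was not tested.

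Within each library the low MHC class II cells were set against the high MHC class II cells, a contrast close to the one the rule made. In WT, 4.07% of 7300 genes were at least 2-fold higher in the low cells and 4.53% lower, and in KO 8.97% and 10.6% of 7923. Among the 10 genes highest in low cells in both libraries were Mgst1, Mmp8, Vcan, Fry, Hp, Ace, Fgd4, Csf3 and Gsr. Vcan (versican) was at 89.1 CPM in low against 19.8 CPM in high cells of the WT library, and at 76.0 against 16.9 CPM in KO. Mgst1, a glutathione transferase, ranked first by the smaller log2 ratio of the 2 libraries with 10 CPM added, though not in KO alone, where Hp was higher. Without that addition its log2 ratios were 2.87 (2.36 to 3.40) in WT and 3.38 (2.90 to 3.91) in KO. Mmp8, a collagenase stored by neutrophils, was at 66.8 against 9.90 and 44.2 against 6.90 CPM.

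The 10 genes lowest in low cells were H2-Eb1, Il22ra2, Itgae, Plet1, H2-Oa, Dnase1l3, Serpinb9, H2-DMb2, Actn1 and Itgax, and most are known from dendritic cells. Il22ra2, the soluble receptor that neutralises IL-22, had 0 UMIs in members of either library and 157 and 220 in the high cells. Itgax, which encodes CD11c, was at 35.6 against 162 CPM in WT against 22.1 against 176 CPM in KO. Genes of dendritic cells are thus part of what separates the low from the high cells. The proliferation gene Mki67 differed between the high cells of the libraries, at 73.0 CPM in WT against 291 CPM in KO, while in the low cells it was at 80.2 and 67.2 CPM.

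Several differences between the libraries had the same direction in other cells, and differences between cell classes were not tested. Hmox1 had log2 KO to WT ratios of 1.60 (1.45 to 1.75) in low MHC class II monocytes, 0.67 (0.52 to 0.82) in high MHC class II monocytes, 1.47 (1.32 to 1.61) in macrophages with C1q and 0.86 (0.54 to 1.19) in neutrophils. H2-K1 had -0.90, -0.92, -0.91 and -0.96 in the same order, and -0.47 in T cells. Gbp2 was lower in KO in all 5 classes, with log2 ratios of -1.04 in the members and -1.83 in macrophages with C1q. Slpi and Axl had ratios farther from 0 in the members than in high MHC class II monocytes, with the same direction in both. Slpi, an inhibitor of leukocyte proteases, had 2.34 (2.10 to 2.58) in low and 0.53 (0.20 to 0.86) in high MHC class II monocytes, and its level in neutrophils was higher than in either, at 2402 and 6285 CPM. Axl had -2.10 (-2.58 to -1.63) in the members, -1.40 (-1.74 to -1.07) in high MHC class II monocytes and -0.23 (-0.41 to -0.04) in macrophages with C1q.

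**Figure D5:**
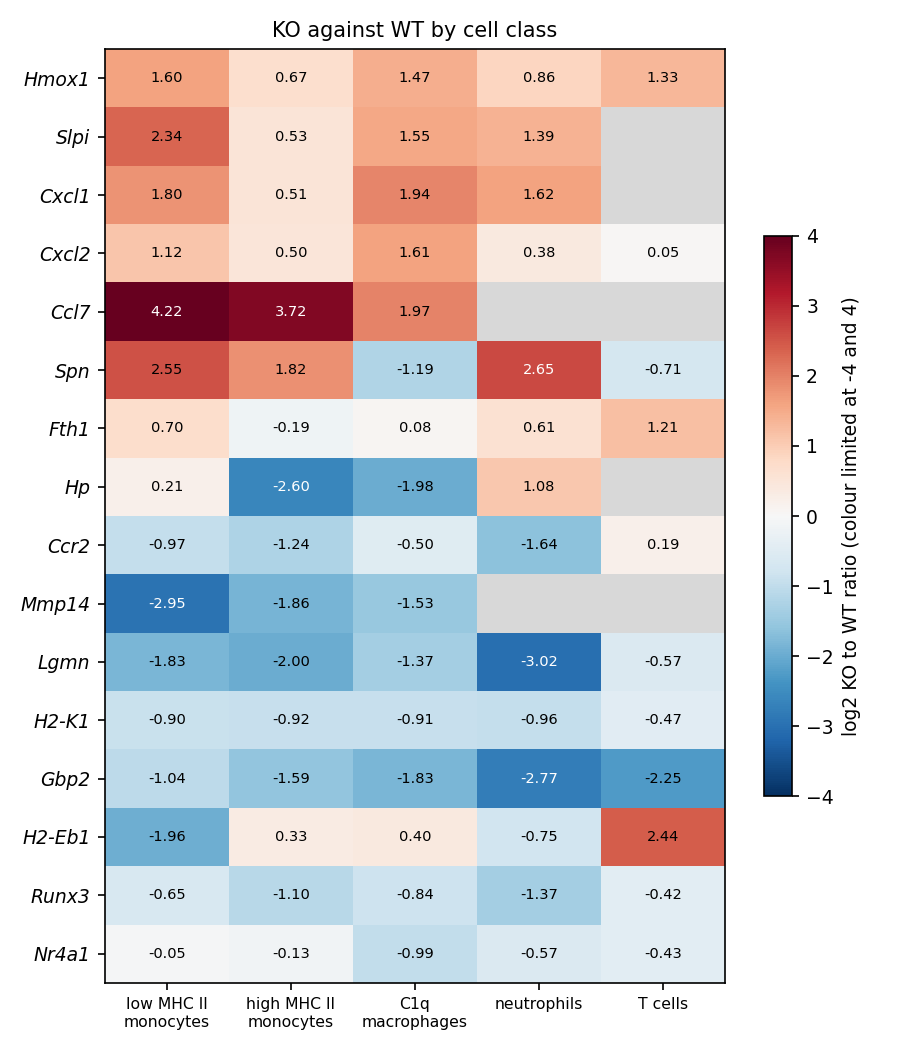
Log2 KO to WT ratio of 16 genes (rows) in 5 cell classes (columns), with the value printed in each field and the colour limited at -4 and 4. Grey fields hold fewer than 20 UMIs over both libraries or 0 UMIs in a library, and Hmox1 is above 0 and Gbp2 below 0 in every class.

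Members also varied among themselves. By the variance to mean ratio of thinned counts, which is 1 for pure counting error, the 10 most variable genes in both libraries were Gm42418, Malat1, Cxcl2, Cxcl10, Cxcl1, Saa3, Crip1, Il1b, Ptgs2 and Apoe. Cxcl2 had a ratio of 11.3 in WT and 22.3 in KO, with up to 44 and 127 UMIs in a cell of 2000. Cxcl10 had 8.02 and 17.8 and a UMI in 29.4% and 23.2% of the thinned cells. Saa3, an acute phase protein, was seen in fewer, with a UMI in 2.75% and 2.80% of the cells and up to 8 and 18 UMIs in 1 cell. Il1b and Ptgs2, the gene of the prostaglandin enzyme COX-2, were found in 68.8% and 59.6% of WT and 72% and 52.8% of KO cells. Apoe, which carries lipid, was at 2444 CPM in WT against 1381 CPM in KO and had a UMI in 82.6% and 62.4% of the cells.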

How the data were processed

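Colon lamina propria cells labelled cd11b+ were profiled with 10x Genomics 3' chemistry in 1 WT and 1 KO library. The deposited matrices hold UMI counts made by the authors with Cell Ranger 3.0.2 (from the file header), and the submitters' processing notes name mm10 and Seurat 4. Libraries held 3185 and 3020 barcodes with 22191774 and 23384895 UMIs. Cells with 200 to 6000 genes and at most 15% mitochondrial UMIs were kept here, 2597 and 2514. The study states more cells than these barcodes, many more for WT. No doublet caller was run. The study's own clusters were not used, and class names rest on rebuilt marker rules, so shares may differ from the study's for that reason. UMIs of members were summed per library, as cells are not replicates. Ratios of CPM have exact conditional binomial intervals, CPM exact Poisson and shares Clopper-Pearson intervals, all 95%. Genes needed 20 UMIs over both libraries, and at least 2-fold means a log2 ratio of 1 with 1 CPM added. Cells were thinned to 2000 UMIs with a fixed seed. Named genes were list members, the 10 highest and lowest KO to WT ratios (at least 50 UMIs and 10 cells), the 10 highest and lowest between low and high MHC class II in both libraries with 10 CPM added, and the 10 most variable genes. Members and lists were chosen with earlier results of these data known. Of 432 listed genes 430 were measured, and the other 2, Clec7a and Ifi30, were not analysed here. Coordinates are from GENCODE M21 and promoters from RefSeq GRCm38.p6. Scripts used Python 3.11.15, numpy 2.4.6, scipy 1.17.1 and matplotlib 3.10.9 and were tested on simulated data. Alternatives covered cell limits, rule limits, depth, scaling, priors and minimum counts. Some genes of the lists and rankings enter the counts but are not reported here by name.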

Additional observations from a re-analysis of the deposited data

Results flagged for a closer look

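KO to WT ratios of 76 genes were set against each other in low and high MHC class II monocytes. These genes were picked for the text and are not a sample of all tested genes. Of them, 12 had opposite directions in the 2 classes with both counting intervals apart from 0. The same count over all tested genes was not made, so the 12 have no background share beside them. With 1 library per genotype the difference was not tested, so each value below is the log2 ratio in low minus that in high MHC class II monocytes and nothing more.

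Genes that were higher in KO in the low cells but lower in the high cells were Inhba, an activin subunit, with 3.20, Hp (haptoglobin) with 2.81, Thbs1 (thrombospondin 1) with 1.28, Itgam, which encodes CD11b, with 1.23, Itgal with 1.17, Isg15 with 0.93, Fn1 with 0.91, Fth1 with 0.89 and Csf1r, the receptor of macrophage colony-stimulating factor, with 0.87. In the low cells the log2 ratio of Hp, 0.21 in all members, was -0.24 below 0.1% MHC class II, and that of Inhba, 2.50, was 0.87 with the limit of 2%. Genes with the opposite order were H2-Eb1 with -2.29, Ccr7, a homing receptor of dendritic cells, with -2.06 and Cxcl10 with -1.21. Low and high cells were parted by MHC class II itself, which bears on H2-Eb1, and 5 cells held 89.7% of the WT UMIs of Ccr7 in the low cells.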

How the results depend on the processing

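No paired analysis was possible because there is 1 library per genotype. The share of low MHC class II monocytes among filtered cells in WT was 3.23% with an MHC class II limit of 0.5%, 6.62% with 2% and 3.81% without members holding epithelial or plasma cell UMIs, and in KO 12.8% with the rule applied after thinning to 2000 UMIs. Among all monocytes the share was 25.1% in WT with 0.5%, 51.3% in WT and 79.5% in KO with 2%, and 80.1% in KO after thinning, and it stayed higher in KO in each of these. Genes at least 2-fold higher in KO (260) numbered 74 with 10 CPM added, 898 with no minimum of UMIs, 76 with at least 100 UMIs and 420 in members below 0.1% MHC class II. Genes lower (636) numbered 354 in thinned members, 241, 2809 and 118 under the settings of the first 3. Counts for the lists follow as numbers of genes, without the number tested or the share of all genes under each setting. With no minimum more genes are tested, and the genes lower over all rose to 2809 too. Interferon GTPases lower (3) were 6 with the 2% limit, 6 by mean of per-cell CPM, 7 with no minimum, 1 without members holding epithelial or plasma cell UMIs and 5 below 0.1%. Resident macrophage genes lower (3) were 5 with 2% and 9 with no minimum. Fc receptors lower (2) were 1 with 2%, with 10 CPM added, after subtracting the median and without those members. Type I interferon genes lower (2) were 6 with the thinned rule, 4 by per-cell means, and 1 with at least 100 UMIs, minus the median and without those members. Non-classical genes higher (6) were 3 with at least 100 UMIs, and MHC class II genes lower (3) were 0 below 0.1%. Between low and high cells, genes lower in KO (839) were 496 with the thinned rule and 217 in thinned members, genes higher in KO (711) 466 and genes lower in WT (331) 186 in thinned members. At 1000 UMIs, 4.13% of WT and 15.4% of KO members held 2 or more non-classical UMIs. Directions turned for Rsad2 (-0.10, thinned rule), H2-Eb1 (0.85), H2-DMa (0.074) and Hp (-0.24) below 0.1% MHC class II, where the intervals of H2-Eb1 overlap, and Ccr7 (0.94) without the 5 cells with most UMIs of the gene. Ccl5, near 0 over all members, was 0.31 with the thinned rule and 1.12 below 0.1%. Of the values for single genes, 1190 stayed within counting error of the main value, 157 moved beyond it and 5 turned. The settings without certain members, below 0.1% and without 5 cells were chosen after seeing the data. The cause of these shifts was not tested. Depth limits genes with few UMIs, since WT members held 673454 UMIs in all.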

Other observations

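Receptors of microbial products and of adhesion differed gene by gene in the members. Of 22 tested pattern recognition genes, 3 were at least 2-fold higher in KO and 3 lower, beside 3.49% and 8.53% of all tested genes, with a median log2 ratio of 0.54 beside -0.15 for all genes. Tlr13, a receptor of bacterial ribosomal RNA, had 34 UMIs in WT and 277 in KO, a log2 ratio of 1.28 (0.76 to 1.84). Clec4n, which encodes the fungal receptor dectin-2, had 62 and 78 UMIs, a ratio of -1.42 (-1.92 to -0.91), and the formyl peptide receptor Fpr2 77 and 128 UMIs. The endotoxin co-receptor Cd14 and Tlr2 stayed within 2-fold, at 1403 and 1741 CPM and at 701 and 638 CPM.

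Of 22 tested adhesion and migration genes, 3 were at least 2-fold higher in KO and 2 lower, beside 3.49% and 8.53% of all tested genes, so that the lower share is near that of all genes. Itgb2, the common beta chain of the leukocyte integrins, was at 229 CPM (194 to 268) and 558 CPM (527 to 589), with 5.55% of the KO UMIs in 5 cells, and its log2 ratio of 1.29 was 0.97 in members below 0.1% MHC class II. Cd177, which is also a neutrophil marker, had 19 and 288 UMIs. The neutrophil markers, Cd177 among them, summed to 662 CPM in WT and 579.6 CPM in KO members. The part of neutrophil RNA in the Cd177 difference was not tested. The matrix protein gene Spp1 (osteopontin) had 24 and 285 UMIs, with 68.8% of the KO UMIs in 5 cells.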
